A study of Mus musculus with 24 samples.

Results

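Round spermatids and pachytene/diplotene spermatocytes of heterozygous Ago413+/- mice were compared by RNA-seq, with 4 round spermatid libraries (replicates 1 to 4) and 3 spermatocyte libraries (replicates 1 to 3) out of 24 in the series. The fourth heterozygous spermatocyte library, which the labels mark as an outlier, was left out. Of the 55536 genes in the deposited count table, the 18774 that reached 10 counts in 3 or more of these 7 libraries were tested, and they held at least 99.84% of the counts of each library. A further 14147 genes had counts but missed that minimum, and 22615 had none in the 7 libraries. The 299 genes whose third-highest count was exactly 10 had a median of 61 counts over all libraries, and the 346 just outside, with a third-highest count of 9, had a median of 54.

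The Ago413 allele is a constitutive deletion on chromosome 4 that removes all of Ago1 and part of Ago3 and Ago4, and all 7 libraries came from mice that carried it on 1 of the 2 homologs. A haploid round spermatid inherits either the deleted or the intact copy. The males were 10 to 15 weeks old and had been backcrossed to C57BL/6J. Each preparation pooled the testes of 2 to 5 mice, and the fractions came from a gravity gradient of bovine serum albumin, in which cells settle by size and density. Fractions were kept when more than 70% of the cells were of the intended type by microscopy, so each library also held RNA of other cells, and the study's methods give a lower range of purity for spermatocyte than for round spermatid fractions. Where a transcript differed between fractions, fewer cells of a type and less RNA per cell cannot be told apart. The p-values measure the spread between these pooled preparations. The series also held Ago413+/+ and Ago413-/- fractions of the same kinds, which serve below only to set the heterozygous difference beside.

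Spermatocytes pair and recombine their homologs in prophase I, while the X and Y chromosomes are silenced inside the sex body. After both meiotic divisions the haploid round spermatid builds the acrosome, the enzyme-filled cap used at fertilisation, and begins the tail. Late round spermatids transcribe and store mRNAs for transition proteins and protamines, which replace histones once transcription has stopped. The comparison therefore asked which transcripts separate meiotic prophase from haploid differentiation in testes with a single functional copy of the Argonaute cluster.

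Library totals ran from 18691082 to 22968261 counts, and depth did not separate the fractions (19034378 to 21041550 in round spermatids). Levels are given as counts per 1000000 (CPM) after scaling by the trimmed mean of M-values (TMM). Genes were called where edgeR's quasi-likelihood test gave a p below 0.05 after Benjamini-Hochberg adjustment and the absolute log2 fold change exceeded 0.5. A spermatocyte library stood apart. Spermatocyte replicate 3 correlated with the other 6 libraries at 0.926 to 0.953 across genes (log2 CPM), compared with 0.988 between spermatocyte replicates 1 and 2. Round spermatid replicate 2 correlated at 0.983 with both of these spermatocyte libraries, at 0.973 and 0.975 with round spermatid replicates 1 and 4, and highest, at 0.9855, with round spermatid replicate 3. The latter correlated at 0.979 with spermatocyte replicate 1.

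The labels were checked against 13 stage marker genes, and of these only the latest separated the fractions. Tnp1, Tnp2, Prm1 and Prm2, whose products condense the spermatid nucleus, were higher in every library labelled round spermatid. The earlier spermatid markers Acrv1 (an acrosomal antigen), Tssk1 (a testis-specific kinase) and Izumo1 (the sperm ligand for egg fusion) overlapped between fractions. Acrv1 stood at 239, 208, 251 and 281 CPM in round spermatids and at 209, 182 and 349 CPM in the libraries labelled spermatocytes, with a log2 fold change of -0.01 ± 0.23 (SE, adjusted p = 0.986). The highest Acrv1 level was thus in spermatocyte replicate 3.

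The meiotic markers leaned to the spermatocyte side without passing the test. Sycp3, a lateral element of the synaptonemal complex, measured 29.9, 57.1, 36.6 and 28.4 CPM in round spermatids against 78, 52.6 and 71.1 CPM (log2 fold change -0.82 ± 0.25, adjusted p = 0.12). Piwil1, the PIWI protein of pachytene piRNAs, measured 87.4, 165, 80.2 and 72.8 CPM against 304, 201 and 91.4 CPM (log2 fold change -0.97 ± 0.39, adjusted p = 0.219). In both genes round spermatid replicate 2 was the highest of its fraction, and in each it crossed into the spermatocyte range. Hspa2, a chaperone of late prophase, and Ccna1, the cyclin of the first meiotic division, had log2 fold changes of -0.12 and -0.02 with overlapping libraries. The fractions are therefore called by their labels here. The reservation is that, among these stage markers, only those of late round spermatids and later stages separated them. Pou5f2, which the study's methods use beside Ccna1 for diplotene and dividing spermatocytes, was not among the markers checked. It was called lower in round spermatids without overlap (log2 fold change -1.26 ± 0.27, adjusted p = 0.0456).

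**Figure D1:**
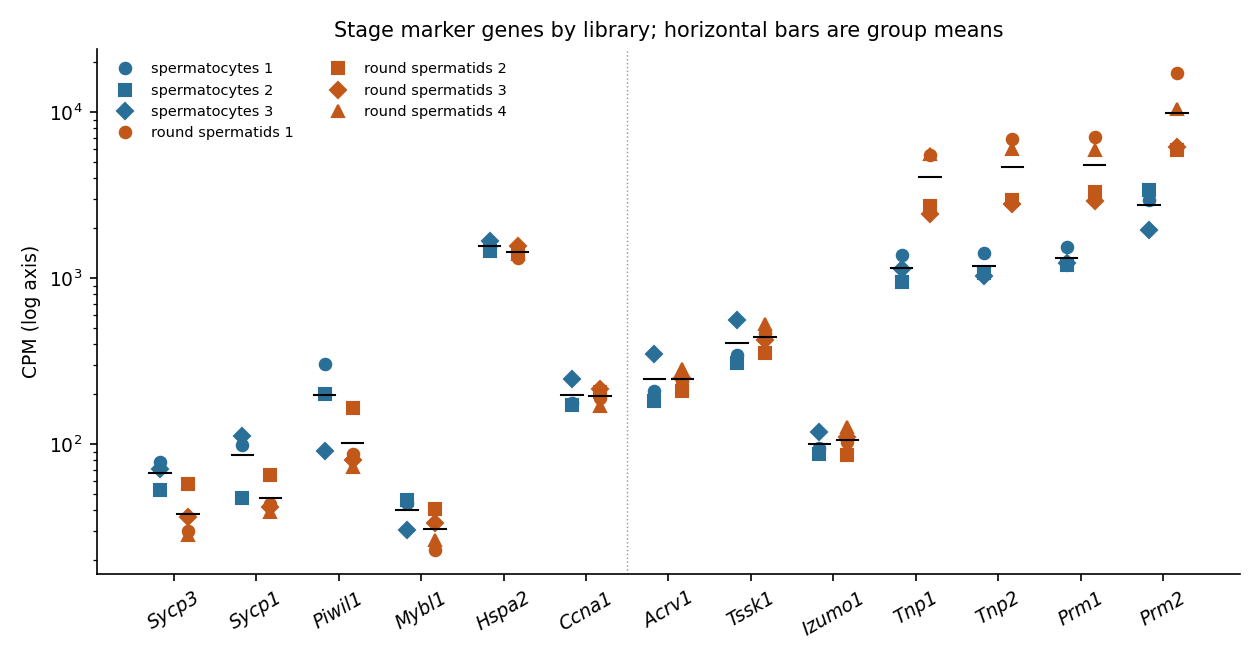
CPM (log axis) of 13 stage marker genes in each heterozygous library, with spermatocytes in blue, round spermatids in orange, 1 symbol shape per replicate number and horizontal bars for group means. Markers left of the dotted line are meiotic and those right of it are spermatid. Tnp1, Tnp2, Prm1 and Prm2 do not overlap between fractions, whereas Sycp3, Sycp1, Piwil1, Mybl1, Hspa2, Ccna1, Acrv1, Tssk1 and Izumo1 do.

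Across the genome the called difference ran almost wholly towards higher levels in round spermatids. Of 18774 genes, 505 were called (2.69%), of which 481 were higher in round spermatids (2.56%) and 24 lower (0.128%). The higher genes had a median log2 fold change of 1.68 and none below 0.782. The lower genes had a median of -1.28 and ranged from -0.75 to -3.58. The largest change, of AC131185.1, rested on a round spermatid mean of 0.052 CPM, below the level of 3 counts per library, so its size is uncertain. The median over all tested genes was -0.06.

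The calls lay close to the threshold. The smallest adjusted p of any gene was 0.0455, and 3439 genes had an unadjusted p below 0.05. Separation by range was more common than calls, since 3525 genes (18.8%) had no overlap between the 4 and the 3 libraries, 2099 of them higher (11.2%) and 1426 lower (7.6%) in round spermatids. All 481 higher and all 24 lower genes were among these. edgeR called no gene without round spermatid replicate 1, without round spermatid replicate 4 or without any of spermatocyte replicates 1, 2 and 3, with 2204 to 4433 genes at an unadjusted p below 0.05, while 885 were called without round spermatid replicate 2 and 392 without round spermatid replicate 3. With round spermatid replicate 2 and spermatocyte replicate 3 both left out, a choice made after seeing the data, 2977 of 18143 genes were called (16.4%), 1632 higher (9%) and 1345 lower (7.41%), so that the share of higher calls was 54.8% instead of 95.2%. These were the libraries of each fraction that lay nearest to the other fraction in several of the lists below, so counts from the fit without them are given as a description and support no direction. DESeq2 called 1466 genes on the original 7 libraries, 81.9% of them higher. Every one of the 505 genes that could be tested under an alternative kept its direction. As none of the 505 overlapped between fractions, leaving out libraries or changing thresholds could hardly reverse them, so this is no test of direction.

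**Figure D2:**
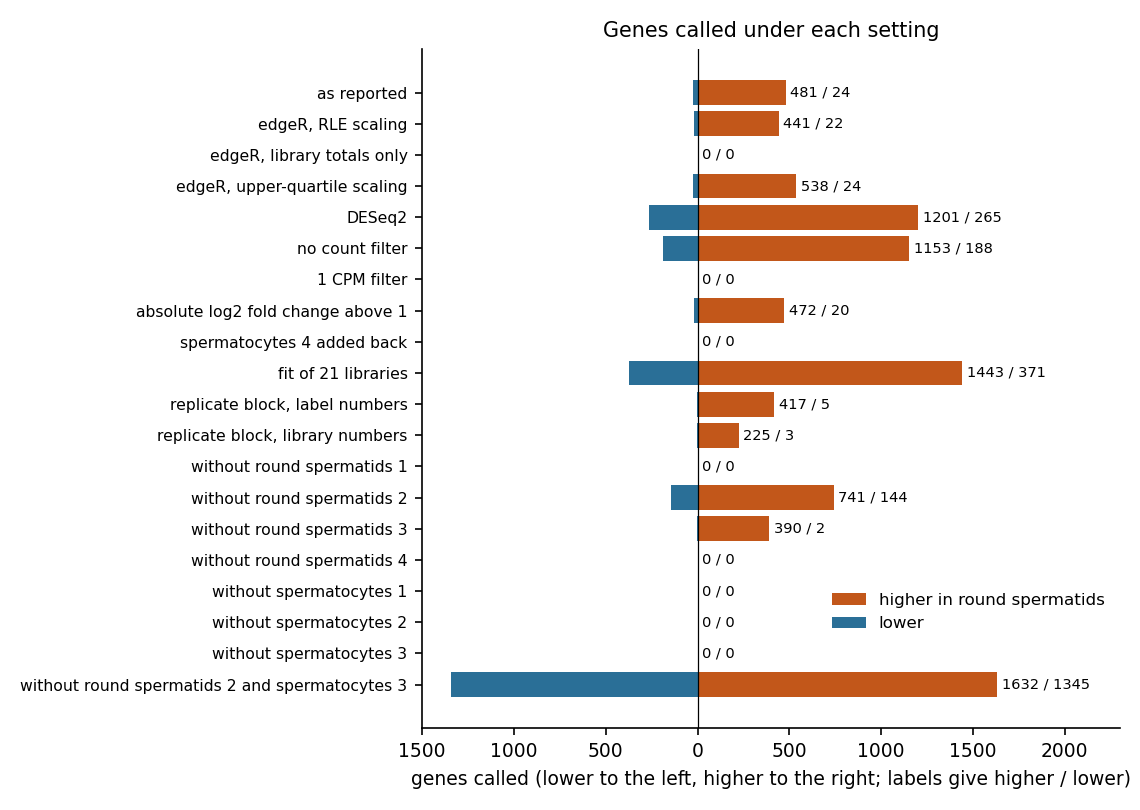
Genes called lower (blue, to the left) and higher (orange, to the right) in round spermatids under each setting, with both counts printed beside the bars as higher / lower. The count runs from 0 in 8 of the settings to 2977 with round spermatid replicate 2 and spermatocyte replicate 3 left out.

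The share of genes called higher grew with expression level. It was 0.781% below 1 CPM, 1.3% from 1 to 10 CPM, 3.06% from 10 to 100 CPM, 7.03% from 100 to 1000 CPM and 15.9% of the 88 genes at 1000 CPM or more (mean over the 7 libraries). The 10 genes with the most counts in a library took 3.79% to 6.08% of all counts in round spermatids and 3.27% to 3.34% in spermatocytes (exact permutation p = 0.0571, two-sided, the smallest that 4 against 3 libraries allow). With library totals alone as the scaling, the median of all genes moved to -0.28 and edgeR called no gene, with 4597 at an unadjusted p below 0.05.

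**Figure D3:**
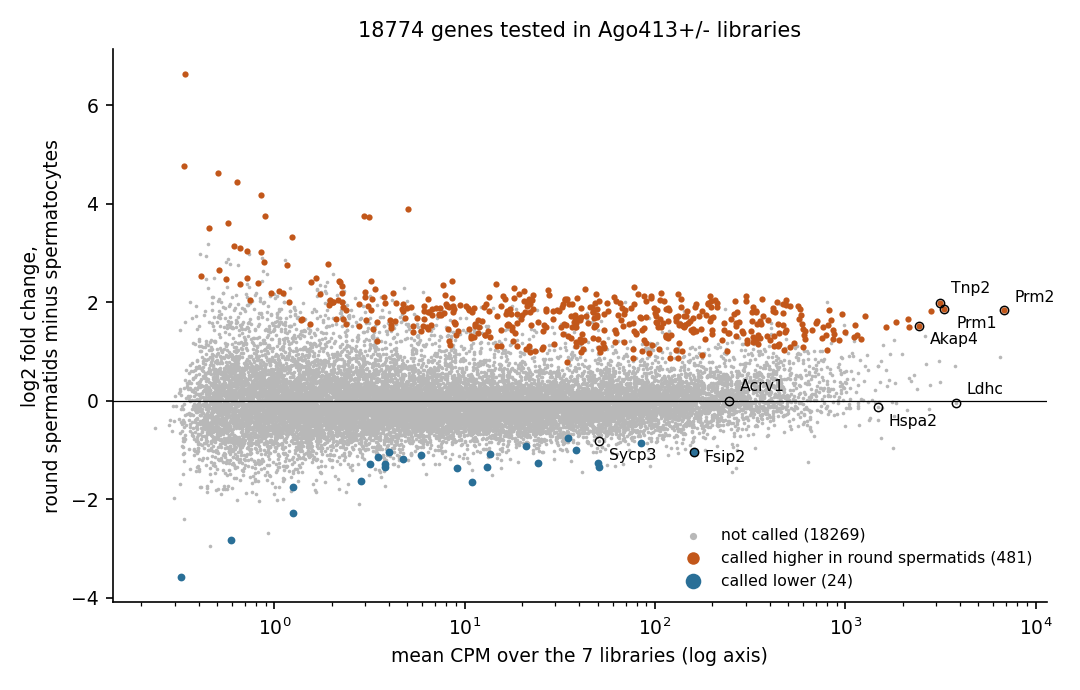
Log2 fold change (round spermatids minus spermatocytes) against mean CPM over the 7 libraries (log axis) for the 18774 genes tested, with genes called higher in orange, lower in blue and the rest in grey. The 481 higher genes form a band around a log2 fold change of 1.68 that reaches up to the protamines, and the 24 lower genes lie at low and middle levels.

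In the study's own stage marker lists, drawn from single wild-type cells and thus from other libraries, the called genes lay in the latest stages. Of the 64 tested late round spermatid markers, 54 were called higher and none lower (2.56% and 0.128% of all genes), with a median log2 fold change of 1.65 (range over left-out libraries 1.45 to 1.80) beside -0.06 for all genes. All 64 were above 0, and 61 were higher without overlap between fractions (11.2% of all genes). Of the 63 elongating spermatid markers, 34 were called higher and none lower, with a median of 1.31 (1.05 to 1.44), and 61 were above 0. Together both lists, which share no gene, held 88 of the 481 higher genes (18.3%).

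Late markers were graded among the round spermatid libraries. The summed level of the late round spermatid list was 40935, 19054, 18813 and 36741 CPM in round spermatid replicates 1 to 4 and 10253, 8651 and 7980.1 CPM in spermatocyte replicates 1 to 3. Round spermatid replicates 1 and 4 thus stood well above replicates 2 and 3, and all 4 stood above the spermatocytes. The called count of this list was 63 without round spermatid replicate 2 and spermatocyte replicate 3, and 0 when any of round spermatid replicates 1 and 4 or spermatocyte replicates 1, 2 and 3 was left out, when the outlier library was added back, and with library totals or a 1 CPM filter, while all 64 stayed above 0 throughout. The elongating list had no call under the same 8 settings and 60 without that pair, where 9% of all genes were called higher.

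The earlier stage lists did not follow. No early round spermatid marker was called among 98, and the median was -0.16 (-0.35 to 0.14 over left-out libraries), with 24 genes above 0. Without spermatocyte replicate 3, 93 of the 98 were above 0, and without spermatocyte replicate 2, 12. Its summed level was 12306, 10502, 13005 and 14042 CPM in round spermatids and 11344, 10605 and 17910.5 CPM in spermatocytes, so spermatocyte replicate 3 was the highest of all 7. Of 90 pachytene markers 4 were above 0, the median was -0.65 (-0.88 to -0.47), and 1, the splicing regulator Srek1, was called lower. With round spermatid replicate 2 and spermatocyte replicate 3 left out, 72 of 89 were called lower, beside 7.41% of all genes in that fit. Since these libraries held the highest round spermatid and the lowest spermatocyte sum of this list, the gain in calls is no evidence of its direction. Summed pachytene levels were 2064, 2996, 2090.3 and 1823 CPM in round spermatids and 4163, 3606 and 2134 CPM in spermatocytes, where round spermatid replicate 2 lay above spermatocyte replicate 3. The spermatogonial list (96 genes, median -0.13, 35 above 0, but 0.05 with 56 above 0 without spermatocyte replicate 2), the leptotene/zygotene list (93 genes, -0.19, 29 above 0) and the diplotene to second division list (96 genes, -0.20, 22 above 0, and -0.09 without spermatocyte replicate 3) had no called gene with all 7 libraries, and 11, 27 and 6 genes called lower without that pair, with the same limit.

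**Figure D4:**
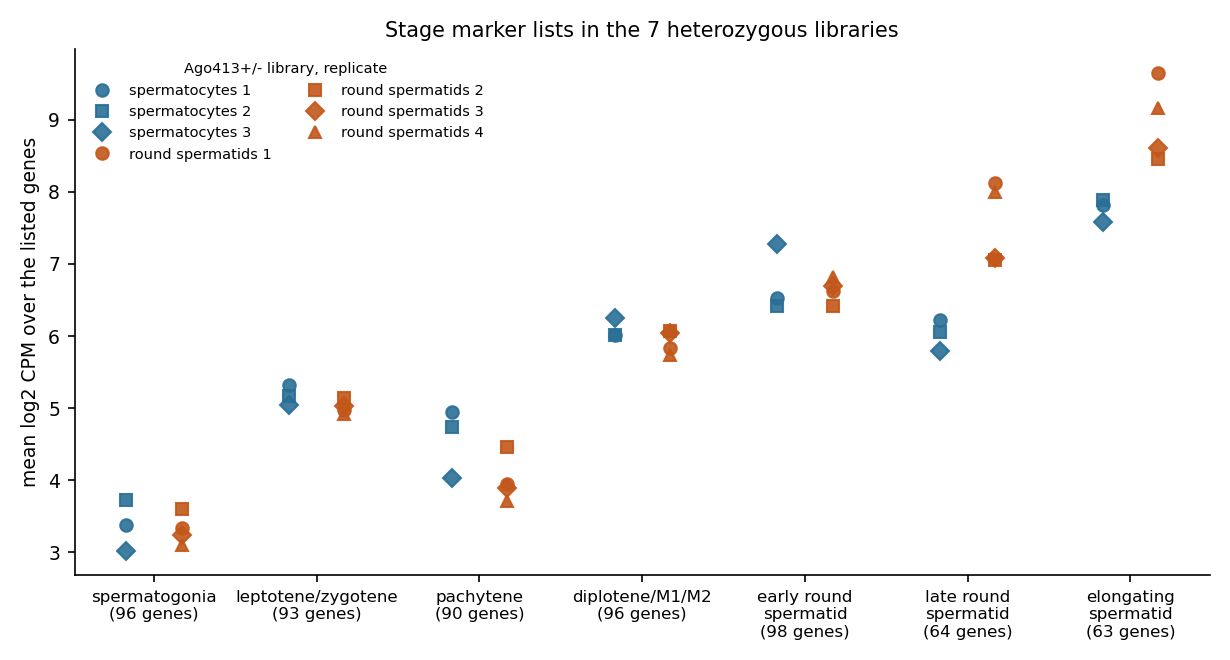
Mean log2 CPM over each stage marker list (number of genes tested in brackets) in the 3 spermatocyte (blue) and 4 round spermatid (orange) libraries, 1 symbol shape per replicate number. The fractions separate at the late round spermatid and elongating lists only, and spermatocyte replicate 3 is the highest library at the early round spermatid list.

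Genes of the transition proteins and protamines were called higher in round spermatids. Tnp1 (transition protein 1, ENSMUSG00000026182, chromosome 1) measured 5508, 2718, 2442 and 5548 CPM in round spermatids and 1368, 948 and 1140.2 CPM in spermatocytes, that is 4054 ± 1706 (SD, n = 4) against 1152 ± 210.3 (SD, n = 3). The lowest round spermatid library exceeded the highest spermatocyte library, and the log2 fold change was 1.81 ± 0.34 (SE, adjusted p = 0.0455). Prm1 (protamine 1, ENSMUSG00000022501, chromosome 16) measured 7108, 3309.8, 2926 and 5864 CPM against 1537, 1205 and 1236 CPM, a log2 fold change of 1.86 ± 0.33 (adjusted p = 0.0455). Its neighbours on chromosome 16 moved similarly, with Tnp2 at 1.99 ± 0.35 (adjusted p = 0.0455) and Prm2 at 1.84 ± 0.40 (adjusted p = 0.0458).

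Prm2 had the most counts of the 4, with 17146, 5874, 6143 and 10427 CPM in round spermatids and 2969, 3384 and 1939 CPM in spermatocytes. Per kilobase of transcript the means of the 4 genes were within 8394 to 11071 CPM in round spermatids and 2119 to 3092 CPM in spermatocytes, and Prm2 led in both fractions. These 4 genes together took 2.12 ± 0.769% of all counts in round spermatids (SD, n = 4) and 0.706 ± 0.151% in spermatocytes (SD, n = 3), a difference with the smallest p the design allows (exact permutation p = 0.0571, two-sided). Spermatocyte libraries thus held these haploid transcripts too.

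Of 18 packaging genes tested, 6 were called higher, beside 2.56% of all genes, and none lower, with a median log2 fold change of 0.52. Besides the 4 above, these were H1fnt (a spermatid linker histone) at 1.62 and H2al2a (a spermatid H2A variant) at 1.62. Prm3 (0.90), the chromatin remodeller Chd5 (0.62) and the kinase gene Camk4 (0.56) lay above 0 without a call. The replacement histone genes H3f3a and H3f3b stood at -0.20 and -0.57, and Hist1h1t, the testis linker histone, at -0.23, all uncalled. With round spermatid replicate 2 and spermatocyte replicate 3 left out, 10 of the 18 were called higher, beside 9% of all genes in that fit.

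Promoters of 4 of these late genes are printed because all hold the same 8-base motif close to their start. Each runs from 250 bases before to 50 bases after the RefSeq start site on the coding strand (build GRCm38.p6), and capitals mark matches to TGANGTCA or its reverse complement, a pattern related to the cAMP response element. Tnp1 is at chr1:73015850-73016149 (minus strand), Prm1 at chr16:10796774-10797073 (minus), Gapdhs at chr7:30743632-30743931 (minus) and Akap4 at chrX:7067265-7067564 (plus).
Tnp1: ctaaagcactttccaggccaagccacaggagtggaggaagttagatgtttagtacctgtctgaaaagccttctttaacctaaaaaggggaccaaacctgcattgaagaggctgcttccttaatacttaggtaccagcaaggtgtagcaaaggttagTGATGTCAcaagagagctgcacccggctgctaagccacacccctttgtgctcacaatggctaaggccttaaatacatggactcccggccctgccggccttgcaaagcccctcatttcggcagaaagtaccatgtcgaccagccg
Prm1: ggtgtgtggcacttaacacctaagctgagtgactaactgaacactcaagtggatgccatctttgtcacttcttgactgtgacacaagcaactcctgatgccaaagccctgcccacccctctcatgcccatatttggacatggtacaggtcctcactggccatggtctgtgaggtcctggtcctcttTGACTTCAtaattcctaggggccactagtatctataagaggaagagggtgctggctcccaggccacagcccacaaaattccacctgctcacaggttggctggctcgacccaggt
Gapdhs: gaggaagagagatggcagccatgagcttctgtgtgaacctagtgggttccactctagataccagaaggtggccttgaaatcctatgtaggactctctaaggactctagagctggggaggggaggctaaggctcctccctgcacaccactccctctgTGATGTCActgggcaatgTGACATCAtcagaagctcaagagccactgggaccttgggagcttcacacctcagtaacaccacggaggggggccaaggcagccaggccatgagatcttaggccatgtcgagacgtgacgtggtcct
Akap4: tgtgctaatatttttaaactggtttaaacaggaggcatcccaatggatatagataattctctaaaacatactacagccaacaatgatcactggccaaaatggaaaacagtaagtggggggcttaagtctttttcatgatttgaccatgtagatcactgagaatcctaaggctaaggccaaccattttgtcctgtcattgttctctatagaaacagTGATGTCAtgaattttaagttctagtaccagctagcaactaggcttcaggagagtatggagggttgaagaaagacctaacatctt

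The match begins 94 bases before the start site in Tnp1 (TGATGTCA), 64 before in Prm1 (TGACTTCA), 94 and 76 before in Gapdhs (TGATGTCA and TGACATCA) and 35 before in Akap4 (TGATGTCA). RefSeq promoters were found for 347 of the 481 higher genes, 14 of the 24 lower genes and 13015 of the 18774 genes tested. TGANGTCA, searched on both strands and chosen after the promoters of called genes had been seen, was present in 67 of the 347 (19.3%), in 3 of the 14 (21.4%) and in 9.76% of all tested genes, compared with 8.83% of the 32851 promoters in the table. Without the 4 promoters printed, 63 of 343 (18.4%) held it. Among genes of at least 10 CPM the shares were 21.6% for higher genes and 10.4% for all.

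The other motifs searched, on both strands, were as frequent among higher genes as among all tested genes or less so. TGACGTCA, the full palindrome and a special case of TGANGTCA, was in 2.88% and 3.0%. Its core TGACG, which lies within it, was in 25.1% and 28.5%, the MYB-type letters CAACTG or TAACTG in 17.9% and 18.4%, the RFX-type letters GTTGCC in 14.1% and 14.4%, and TATAAA in 7.49% and 8.03%. In the 14 promoters of lower genes, 9 held TGACG. A match describes letters in this window and was not tested as a binding site.

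The sperm tail gave called genes in both directions. Akap4, the X-linked scaffold of the fibrous sheath, measured 5043, 2119.8, 2379 and 4058 CPM in round spermatids and 1333, 1390.4 and 809.9 CPM in spermatocytes, without overlap (log2 fold change 1.53 ± 0.34, adjusted p = 0.0477). Oaz3, a testis ornithine decarboxylase antizyme, was 3.02-fold higher (log2 fold change 1.60 ± 0.31, adjusted p = 0.0455). Spert was called higher at 1.34. Fsip2, a large fibrous sheath interacting protein, went the other way, with 90.3, 145, 109 and 98.1 CPM in round spermatids against 273, 202 and 204 CPM in spermatocytes (log2 fold change -1.03 ± 0.20, adjusted p = 0.0455).

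In all, 3 of the 21 outer dense fiber and fibrous sheath genes were called higher and 1 lower, beside 2.56% and 0.128% of all genes, with a median of 0.35 that was 0.15 without spermatocyte replicate 2 and 0.53 without spermatocyte replicate 3. With round spermatid replicate 2 and spermatocyte replicate 3 both left out, 11 of the 21 were called higher (9% of all genes in that fit) and 20 were above 0. Odf2, a main component of the outer dense fibers, measured 10996, 5817, 6594 and 8808 CPM against 4353, 4399 and 4331 CPM. Its libraries did not overlap, but its log2 fold change of 0.89 ± 0.24 missed the threshold (adjusted p = 0.085), as did that of Odf1 at 1.23 ± 0.29 (adjusted p = 0.0532). None of 33 axoneme genes was called, beside 2.56% of all genes called higher, and their median was -0.04. Its dynein heavy chain Dnah8 ranged from 699 to 932 CPM in round spermatids and from 317 to 1094 CPM in spermatocytes, with the lowest value in spermatocyte replicate 3. Of 17 CatSper and ion channel genes 1 was called higher (2.56% of all genes), the sperm sodium pump Atp1a4 (1.26 ± 0.27, adjusted p = 0.0456), and the list median was 0.03 (-0.08 to 0.10 as libraries were left out).

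Energy genes gave 3 calls, all higher in round spermatids. Gapdhs, the sperm isozyme of glyceraldehyde-3-phosphate dehydrogenase, measured 4838, 1906, 2109 and 3159 CPM against 996, 1102 and 769 CPM, without overlap (log2 fold change 1.65 ± 0.33, adjusted p = 0.0455). Gpi1, glucose-6-phosphate isomerase, was higher at 1.92 ± 0.43 (adjusted p = 0.0492) and Pkm, pyruvate kinase, at 1.55 ± 0.35 (adjusted p = 0.0499). Ldhc, the germ cell lactate dehydrogenase, overlapped, with 3542 to 3933 CPM in round spermatids and 3348 to 4662 CPM in spermatocytes (log2 fold change -0.03 ± 0.18, adjusted p = 0.944). Pgk2, an autosomal retrogene of phosphoglycerate kinase, did not overlap and lay at 0.92 ± 0.24 (adjusted p = 0.0677), and hexokinase Hk1 at 1.33 ± 0.33 (adjusted p = 0.063). The germ cell energy list had 2 of 19 called higher with a median of 0.03, and the somatic glycolysis list 1 of 12 with a median of 0.54, beside 2.56% of all genes called higher. The latter median was 0.16 without spermatocyte replicate 3 and 0.74 without spermatocyte replicate 2. It was 0.01 without both spermatocyte replicate 3 and round spermatid replicate 2.

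Genes that shape the head and process surface proteins were called singly. Spem2 measured 1167, 414, 481 and 715 CPM against 199.9, 229.9 and 105 CPM (log2 fold change 1.96 ± 0.40, adjusted p = 0.0455), and Spem1, needed to strip cytoplasm from the sperm head, was at 1.74. They were the 2 of 21 called in the head shaping and manchette list (median 0.29), where Spata6 (0.84) and Pmfbp1 (0.86), genes of the head-tail coupling apparatus, did not overlap but were not called. Among kinases and phosphatases Tssk6 was the 1 of 14 called (1.78 ± 0.36, adjusted p = 0.0455; list median 0.05). Of all genes 2.56% were called higher. The Tssk6 relative Tssk2 lay at 0.83 without a call (adjusted p = 0.12).

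Acrosome genes were called higher in 2 of 25 cases, beside 2.56% of all genes. Prss55, a membrane serine protease, measured 198, 99.4, 104 and 201 CPM against 52.6, 46.3 and 44.5 CPM (log2 fold change 1.65 ± 0.28, adjusted p = 0.0455). Prss55 and Fam71f1 (1.30) were these genes, and the list median was -0.06 with 9 above 0. The sign of that median rested on spermatocyte replicate 3, without which it was 0.17 with 20 of 25 above 0 (-0.20 without spermatocyte replicate 2), and with round spermatid replicate 2 left out as well it was 0.21 with 5 called higher and 1 lower (9% and 7.41% of all genes in that fit). None of 10 sperm-egg fusion genes (median 0.09, 6 above 0) and none of 20 testis ADAM genes (median 0.09, 13 above 0) was called. Without spermatocyte replicate 3, 9 of 10 and 18 of 20 were above 0, and without spermatocyte replicate 2, 4 of 10 and 10 of 20. With spermatocyte replicate 3 and round spermatid replicate 2 left out, 2 of 10 and 4 of 20 were called higher, beside the same 9%. In the surface chaperone list, 2 of 12 were called higher (2.56% of all genes), with a median of 0.08 (-0.02 to 0.15 as libraries were left out). These were Prss37, at 131, 71.2, 79.1 and 155 CPM against 33.1, 33 and 22.6 CPM (1.88 ± 0.30, adjusted p = 0.0455), and Ace, the testis angiotensin-converting enzyme, at 1.57 ± 0.34 (adjusted p = 0.0456). Mice without either are known for sperm that bind the zona poorly. The chaperone Clgn of the same pathway lay at -0.15 ± 0.18.

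By size of change among genes of at least 50 CPM in the higher fraction, Noxred1 led the genes called higher. Noxred1, an oxidoreductase domain gene, measured 152, 68.3, 76.7 and 174 CPM in round spermatids and 32, 27.6 and 11.4 CPM in spermatocytes, a 4.95-fold difference (log2 fold change 2.31 ± 0.43, adjusted p = 0.0455). Agpat2, an acyltransferase of phospholipid synthesis, was 4.58-fold higher (2.20 ± 0.41) and Paqr5, a membrane progestin receptor, 4.52-fold higher (2.18 ± 0.39), both with an adjusted p of 0.0455. The remaining genes of the top 10 were Tmem269 (2.27), Tex44 (2.17), Gm136 (2.16), Itpr3os (2.14), Osgin1 (2.13), Ubqlnl (2.13) and the lincRNA 1700009J07Rik (2.12). In each of the 10 spermatocyte replicate 3 held the lowest level. Itpr3os is annotated antisense, and since the strand setting of the counts is not given in the sources used here, its reads cannot be told apart from those of its partner.

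The 24 lower genes were mostly non-coding or unclassified, with 8 protein-coding genes among them. Beside Fsip2, these were Cfap46, a cilia and flagella protein gene, Srek1 and Tra2a, both splicing regulators, Krt10, a keratin, and Esf1, a nucleolar factor. Pou5f2, a POU-domain factor that the study's methods use to mark diplotene and dividing spermatocytes, and Zfp65, a zinc finger gene, completed them. Cfap46 measured 61.8, 70.9, 69.6 and 48.7 CPM in round spermatids and 103, 101 and 136 CPM in spermatocytes (log2 fold change -0.85 ± 0.18, adjusted p = 0.0456). Srek1 measured 31.8, 33.6, 24.3 and 18.4 CPM against 54.1, 45.5 and 62.8 CPM, 2-fold lower (adjusted p = 0.048). Tra2a lay at -0.75 ± 0.17 and Pou5f2 at -1.26 ± 0.27. The transcript 1700097M23Rik had the largest fall among lower genes of at least 50 CPM (-1.34 ± 0.29, adjusted p = 0.0456), followed by the pseudogene transcript 4930432E11Rik (-1.27 ± 0.26), whose level in spermatocyte replicate 3 (116 CPM) was well above that in replicates 1 and 2 (59.7 and 49.4 CPM). Without round spermatid replicate 2 the lower calls numbered 144, and without round spermatid replicate 3 they numbered 2. With replicates as a block, by label number and by library number, they numbered 5 and 3 (round spermatid replicate 4 left out).

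The meiotic lists had medians below 0 and no call with all 7 libraries. Synaptonemal complex and cohesin genes had a median of -0.39 over 15 genes, recombination and crossover genes -0.47 over 22, sex body and DNA damage response genes -0.30 over 19, and PIWI and piRNA genes -0.28 over 20, with 5, 3, 1 and 2 genes above 0. As single libraries were left out these medians ran from -0.58 to -0.29, from -0.49 to -0.26 (without spermatocyte replicate 1), from -0.42 to -0.24 and from -0.42 to -0.20. With round spermatid replicate 2 and spermatocyte replicate 3 both left out, 6 of 15, 7 of 22, 5 of 19 and 8 of 20 were called lower, beside 7.41% of all genes in that fit (0.128% with all 7 libraries). In that fit 1 of the 15 was called higher. The pair was chosen with these values known, so the counts without it are no evidence that the lists were lower. Members differed among themselves. The cohesin subunit Stag3 (0.09) and the central element gene Syce1 (0.01) overlapped. Syce2, another central element gene that is also on the study's elongating spermatid list, leaned the other way. It measured 327, 152, 162 and 238 CPM in round spermatids against 93.2 to 114 CPM (1.09 ± 0.27, adjusted p = 0.0599). The meiotic cohesin Smc1b had 106, 186, 145 and 123 CPM against 255, 191 and 250.4 CPM, with no overlap and no call (-0.73 ± 0.21, adjusted p = 0.0973). Spo11, the enzyme that makes meiotic double-strand breaks, lay at -0.32 ± 0.14 (adjusted p = 0.277).

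The level of a sex body kinase differed among the spermatocyte libraries. Atr, the kinase that marks unsynapsed axes, measured 79.3 to 137 CPM in round spermatids and 200.1, 199 and 94.4 CPM in spermatocytes, so replicate 3 lay in the round spermatid range (-0.69 ± 0.28, adjusted p = 0.222). Pachytene transcription regulators had a median of 0.11 over 13 genes, and meiotic division genes -0.12 over 19, with ranges of 0.05 to 0.14 and of -0.22 to -0.04 as libraries were left out. Among the former, Rfx2, a master regulator of ciliary and spermatid genes, did not overlap at 0.51 ± 0.21 (adjusted p = 0.242).

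Regulators of transcription and translation in spermatids were called at 0 of 13 and 1 of 21, beside 2.56% of all genes called higher. None of 13 spermatid transcription regulators was called (median -0.07, and 0.04 without spermatocyte replicate 3), although Spz1 measured 3027, 1349, 1567 and 2281 CPM against 943, 949 and 916 CPM with no overlap (1.13 ± 0.27, adjusted p = 0.0572) and Kif17, a motor known to carry a CREM cofactor, lay at 1.01 ± 0.27 (adjusted p = 0.078). Samd4, a translational repressor, was the 1 of 21 called among genes of stored mRNA (1.15 ± 0.24, adjusted p = 0.0455; list median 0.02). Ybx2, which packages stored mRNAs, did not overlap at 0.52 ± 0.19 (adjusted p = 0.192), and poly(A) binding protein gene Pabpc1 lay at -0.16 ± 0.18.

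Ribosomal and proteasome transcripts set spermatocyte replicate 3 apart. Ribosomal protein genes had a median of -0.27 over 84 genes with none called, and the median ran from -0.48 to 0.11 as libraries were left out. Their summed level was 23119 CPM in spermatocyte replicate 3 and 10979 to 14483 CPM in the other 6 libraries. Rps14 gave 989.6 CPM in that library against 434 and 363 CPM in spermatocyte replicates 1 and 2 and 357 to 428 CPM in round spermatids. Proteasome genes had a median of -0.30 over 33 with none called (-0.40 without spermatocyte replicate 2 and -0.15 without spermatocyte replicate 3). Their summed level was 7012 CPM in spermatocyte replicate 3 and 4845 to 5463 CPM in the others. Of the 33, 13 were lower in round spermatids without overlap between fractions, beside 7.6% of all genes. Hsp90aa1, a chaperone, measured 1957, 1494 and 3953 CPM in spermatocytes and 1123 to 1458 CPM in round spermatids (-0.95 ± 0.30, adjusted p = 0.126). Mitochondrially encoded genes went the other way with a median of 0.57 over 10, none called, which ran from 0.38 to 1.05 as libraries were left out (highest without spermatocyte replicate 1). Their mean log2 CPM was 6.61, 5.29 and 5.66 in spermatocyte replicates 1 to 3 and 6.33 to 6.84 in round spermatids, so replicate 2 was lowest by this mean, while mt-Co1 was at its lowest, 1472 CPM, in spermatocyte replicate 3. The mitochondrial share of counts was 0.754 ± 0.122% against 0.576 ± 0.284% (exact permutation p = 0.343, two-sided).

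The Argonaute genes of the deleted cluster did not differ detectably between the heterozygous fractions. Ago1, which is wholly inside the deletion, measured 3.37, 2.51, 2.07 and 2.23 CPM in round spermatids and 3.21, 3.77 and 1.71 CPM in spermatocytes (-0.19 ± 0.34, adjusted p = 0.804). Ago3 took the most counts of the 4, at 17.3 to 25.3 CPM against 37.7, 41 and 12.3 CPM (-0.58 ± 0.35, adjusted p = 0.415), and again spermatocyte replicate 3 was the lowest. Ago4 lay at -0.20 ± 0.28 and Ago2, which is outside the cluster, at -0.17 ± 0.39. None of 14 microRNA pathway genes was called (median -0.08, running from -0.17 to 0.07 as libraries were left out).

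The X-linked share of counts was higher, and the Y-linked share lower, in every round spermatid library than in any spermatocyte library. X-linked genes held 1.25, 1.06, 1.02 and 1.30% of counts in round spermatids and 0.919, 0.917 and 0.949% in spermatocytes, without overlap (1.16 ± 0.140% against 0.928 ± 0.0181%, exact permutation p = 0.0571, two-sided). Y-linked genes held 0.0342, 0.0403, 0.0438 and 0.0411% against 0.0507, 0.0451 and 0.0819%, with the same smallest p, and spermatocyte replicate 3 was the highest of the 7. Akap4 alone held 0.421, 0.225, 0.236 and 0.354% of counts in round spermatids and 0.15, 0.16 and 0.0812% in spermatocytes. Without it the X-linked share was 0.831, 0.833, 0.784 and 0.949% against 0.769, 0.756 and 0.868%, and the fractions overlapped. Of 724 X-linked genes tested, 17 were called higher (2.35%) and none lower, beside 464 higher of 17850 autosomal genes (2.6%), and the X-linked median exceeded the autosomal median by 0.08 on the log2 scale. This difference ran from 0.03 without spermatocyte replicate 1 to 0.12 without spermatocyte replicate 2. By library, relative to the spermatocyte mean, it was -0.02, 0.11, 0.03 and 0.23 in round spermatids and -0.04, 0.02 and 0.04 in spermatocytes, so the fractions overlapped.

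The 17 X-linked genes called higher included Akap4, Cdk16, a kinase needed for sperm shape (309, 143, 143 and 249 CPM against 85.2, 93.7 and 53.9 CPM; 1.44 ± 0.32, adjusted p = 0.0468), and Gm6760 (1.70 ± 0.31, adjusted p = 0.0455). The 3 histone H2A-like genes, H2al1m, H2al1n and H2al3, were also called, at 1.87, 1.86 and 1.53, and since such near-identical copies share reads their split is uncertain. The X-linked genes Cypt1 and Cypt3, which encode spermatid nuclear proteins, lay at 0.51 and 0.51 with overlap, both with a high value in spermatocyte replicate 3. The X-linked parents of autosomal retrogenes had a median of 0.13 over 7, which was -0.02 without spermatocyte replicate 1 and 0.32 without spermatocyte replicate 2. Their autosomal retrogenes had -0.29 over 7, which was -0.48 without spermatocyte replicate 2 and -0.09 without spermatocyte replicate 3, and none of either was called. Of 180 Y-linked genes none was called, with a median of -0.37, and the 8 single or low copy ones had a median of -0.12.

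Markers of somatic cells were present at low levels, and some moved with the fraction. In the macrophage list, 4 of 9 were called higher in round spermatids, beside 2.56% of all genes, with a median of 1.70. C1qa had 41, 25, 23 and 18 counts in round spermatids and 2, 3 and 0 in spermatocytes. C1qb measured 12, 5.29, 4.28 and 6.38 CPM against 1.7, 2.45 and 1.18 CPM (1.96 ± 0.42, adjusted p = 0.0456), and C1qc and Lyz2 were called too, with means of 1.49 and 1.37 CPM against 0.104 and 0.162 CPM, the latter at the level of a few counts per library. The defining macrophage genes Adgre1 (0.19) and Csf1r (1.43) were not called, Mrc1 lay at -0.52, and Cd68 reached at most 11 counts. Summed over the list, round spermatids held 33.3 to 78.2 CPM and spermatocytes 12.8 to 32.4 CPM.

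Globin transcripts were at or near the floor in spermatocytes. Hba-a1 had 11, 16, 12 and 7 counts in round spermatids and 0 in each spermatocyte library, which is at least 4.35-fold higher against a floor of 3 counts per library. With Hbb-bs, at 1.01, 1.48, 0.721 and 0.602 CPM against 0.155, 0.0438 and 0 CPM, 2 of 3 tested erythrocyte genes were called higher, beside 2.56% of all genes as for the lists that follow, and the summed level was 4.38 to 11 CPM in round spermatids against 1.23 to 5.12 CPM. Actg2, a smooth muscle actin that is also on the study's late round spermatid list, was the 1 of 6 peritubular myoid genes called, at 577, 298, 325 and 529 CPM against 205, 184 and 174 CPM (1.20 ± 0.25, adjusted p = 0.0455), while Acta2, the usual myoid marker, never exceeded 33 counts. Vwf was the 1 of 5 endothelial genes called (1.45 ± 0.30, adjusted p = 0.0455), and Pecam1 never exceeded 24 counts. Actg2 alone made up most of its list's summed level of 330 to 608 CPM against 197 to 235 CPM, and the endothelial sums were 16 to 26.3 CPM against 8.77 to 11.7 CPM.

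Other somatic lists varied within the fractions. Sertoli genes had no call in 13 and a median of 0.01, with summed levels of 167, 543, 287 and 476 CPM in round spermatids and 429, 632 and 142 CPM in spermatocytes. Spermatocyte replicate 3 and round spermatid replicate 1 were thus the poorest in Sertoli transcripts and round spermatid replicate 2 and spermatocyte replicate 2 the richest of their fractions. Leydig genes had no call in 8 and a median of -1.57, with 6.92 to 16 CPM in round spermatids and 11.4 to 40.7 CPM in spermatocytes, and spermatogonial genes no call in 16 and a median of 0.10. The signs of the Sertoli and spermatogonial medians rested on single libraries. Without spermatocyte replicate 3 the Sertoli and spermatogonial medians were -0.43 and -0.13, and without spermatocyte replicate 2 they were 0.44 and 0.25. The Leydig median ran from -1.90 to -0.96 (without spermatocyte replicates 3 and 2 respectively), and without spermatocyte replicate 3 and round spermatid replicate 2 together 6 of the 8 Leydig genes were called lower, beside 7.41% of all genes in that fit. The part of these cells in the differences above was not tested.

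Size and structure of the called genes, which the test did not use, are given as a description. Protein-coding genes called higher had a median longest transcript of 2687.5 bases with 7 exons, compared with 3274 bases and 9 exons for all coding genes tested, and 25 of 372 (6.72%) had a single exon against 2.85% of all. The 8 coding genes called lower had a median of 3872.5 bases and 10.5 exons. Median transcript GC content was 51.3% for higher, 42.4% for lower and 49.6% for all coding genes. By gene class, 372 of 14332 protein-coding, 40 of 1679 lincRNA and 32 of 1022 antisense genes were called higher (2.6, 2.38 and 3.13%), near the 2.56% of all genes. The part of length and GC in the calls was not tested.

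The same contrast gave more calls in the other genotypes. In its own fit, of 3 round spermatid and 4 spermatocyte libraries with labelled outliers left out, the wild-type comparison called 4532 of 18629 genes (24.3%), 2433 higher and 2099 lower, and the Ago413-/- comparison (4 against 3 libraries) 3749 of 19001 (19.7%), 2547 higher and 1202 lower. Of the heterozygous calls that were also tested in wild type, 484 of 495 were called there in the same direction (97.8% of the heterozygous calls and 10.8% of the 4485 wild-type calls). In Ago413-/- these were 493 of 502 (98.2% and 13.6% of 3634), and no gene was called in opposite directions. Of the genes called higher in wild type, 2305 of 2418 were also above 0 in heterozygotes, and of those called lower 2006 of 2067 were below 0. Over all 18159 genes tested in both, the median absolute log2 fold change was 0.434 in wild type and 0.301 in heterozygotes, and the median standard error over genes was 0.286 in heterozygotes and 0.253 in wild type.

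List medians of the genotypes are set side by side, and differences between them were not tested for lists. Late round spermatid markers had medians of 1.74 in wild type, 1.65 in heterozygotes and 1.73 in Ago413-/-. Pachytene markers had -1.31, -0.65 and -0.68, and early round spermatid markers 0.47, -0.16 and 0.05. Sycp3 averaged 134 ± 50.4 CPM (SD, n = 4) in wild-type and 67.4 ± 13.3 CPM (SD, n = 3) in heterozygous spermatocytes, and 42.4 and 38.2 CPM in the respective round spermatids (scaled over 21 libraries). No gene passed either test of whether the difference between fractions varied with genotype. Ago413-/- against wild type was not tested, nor were genotypes within a fraction. The heterozygous minus wild-type interaction called 0 of 20404 genes (0.0%) in edgeR, with 1576 at an unadjusted p below 0.05, a smallest adjusted p of 0.637 and 0 calls in DESeq2, whose smallest adjusted p was 0.371. The Ago413-/- minus heterozygous interaction also called 0 (0.0%), with 962 at an unadjusted p below 0.05, a smallest adjusted p of 0.86 and 0 calls in DESeq2, whose smallest adjusted p was 0.068.

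**Figure D5:**
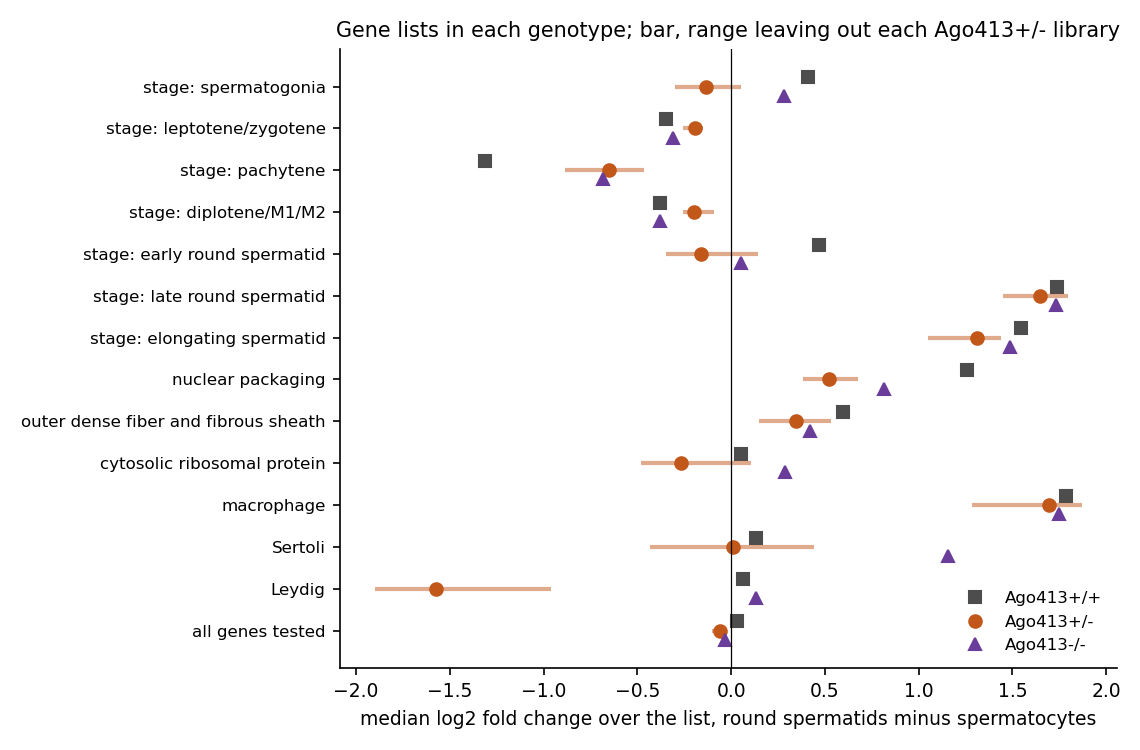
Median log2 fold change (round spermatids minus spermatocytes) of stage marker lists and other lists in Ago413+/+ (grey squares), Ago413+/- (orange circles) and Ago413-/- (purple triangles) libraries. Orange bars span the heterozygous median as each library is left out in turn. Late round spermatid markers lie between 1.65 and 1.74 in all 3 genotypes, and pachytene markers at -1.31, -0.65 and -0.68.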

How the data were processed

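Raw counts per gene were deposited by the authors as a single table of all libraries, made from poly(A)-selected directional libraries with Trim Galore, STAR and its gene counting on build mm10, per the labels and the study's methods. Tool versions, the gene annotation release and the strand setting are not given in the sources used here. Gene names, classes and lengths came from GENCODE release M21, which held all 55536 identifiers. Promoters came from RefSeq.

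From these counts, genes that reached 10 counts in 3 or more of the 7 heterozygous libraries were fitted by edgeR 4.0.16 (glmQLFit, glmQLFTest, TMM scaling) in R 4.3.3 with limma 3.58.1, with fraction as the only term, and p-values were adjusted by Benjamini-Hochberg over all 18774 genes. Interactions between genotypes were fitted over the 21 libraries not labelled outliers. Shares of counts were compared by two-sided exact permutation tests. The scripts were tested on simulated data. Totals of 18691082 to 22968261 counts set a floor (3 counts) of 0.116 to 0.181 CPM, which covers counting error only, whereas the printed SD and SE values hold the spread between libraries.

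Named genes were, by rule, the 10 called genes of largest change in each direction at 50 CPM or more without overlap, up to 4 members of highest level per list plus its called member of largest change, Ago1 to Ago4, the 10 genes of highest level in each fraction and on the X chromosome, 6 unchanged abundant genes, and the stage markers. Fam71f1, Spem1, Spert, H1fnt, H2al2a, other list members and the remaining lower genes were named after their values were seen. The members and lists were chosen with earlier results of these data known, and the motif TGANGTCA after promoters of called genes had been seen.

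Alternatives were DESeq2 1.42.0, other scalings, filters and thresholds, replicate blocks, the labelled outlier added back, a fit of 21 libraries, and each library left out in turn.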

Additional observations from a re-analysis of the deposited data

Results flagged for a closer look

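A single library lay far from the rest of its fraction in 2 of 227 values examined, where the gap to the nearest library, divided by the range of the 4 round spermatid libraries, passed Dixon's critical value at the 95% level. Chance alone gives about 1 such value in 20. C1qa, a complement gene of macrophages, stood at 2.43 CPM in round spermatid replicate 1 and at 1.08 to 1.12 CPM in the other 3 (ratio 0.972). Piwil1, the PIWI protein of pachytene piRNAs, stood at 165 CPM in round spermatid replicate 2 and at 72.8 to 87.4 CPM in the other 3 (ratio 0.842). The pachytene marker list had its highest round spermatid sum, 2996 CPM, in the same library as Piwil1.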

How the results depend on the processing

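The number of called genes depended on the processing. The direction of the called genes did not, but their lack of overlap between fractions largely fixed it in advance. Against 505 called (481 higher, 24 lower), edgeR called 0 (0 higher, 0 lower) with library totals as the only scaling, with a 1 CPM filter (3216 genes at an unadjusted p below 0.05) and with the labelled outlier added back (2865 at that p). DESeq2 called 1466 (1201 higher, 265 lower), the fit with no count filter 1341 (1153 and 188), and the fit of 21 libraries 1814 (1443 and 371). With each library left out in turn the count ran from 0 to 885 (0 to 741 higher, 0 to 144 lower). Leaving out both round spermatid replicate 2 and spermatocyte replicate 3, chosen after seeing the data, gave 2977 (1632 and 1345). Fewer libraries entered those fits. Otherwise the cause was not tested. Scaling by DESeq2 size factors (463 called), upper-quartile scaling (562) and a log2 threshold of 1 (492) stayed within 1.5 times the reported count.

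The correlations did not settle whether libraries of the same number came from one preparation, and the reported test left any pairing out. Correlations of deviations from group means between same-numbered libraries were -0.125, 0.291 and 0.127. Round spermatid replicate 1 correlated best with spermatocyte replicate 3 (0.176), whereas round spermatid replicates 2 and 3 each correlated best with the spermatocyte library of their own number. With the label number as a replicate block, 422 genes were called (417 higher, 5 lower). With consecutive library numbers as the block, the correlations were -0.164, 0.233 and 0.127 and 228 genes were called (225 higher, 3 lower). Both blocked fits drop round spermatid replicate 4, which has no partner. Without a block, the fit of the same libraries called 0 genes.

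For 182 named genes under 19 alternatives, 3450 values were obtained, of which 349 lost a call, 132 gained one and 175 uncalled values changed sign. All 735 values of called genes kept their direction, which the lack of overlap between fractions largely fixed in advance. The interaction counts stayed at 0, and the X-linked minus autosomal median and the X-linked share kept their sign. Depth limits genes near the minimum of 10 counts, where 2 of the 299 genes at the minimum were called.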
